A study of Homo sapiens with 3 samples.

Results

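Prostate cancer cells treated with enzalutamide (ENZ), a drug that blocks androgen signalling, slow their proliferation. After ENZ, a small share of VCaP cells still carried much cell cycle RNA. VCaP–ENZ48 held VCaP cells exposed to 10 µM ENZ for 48 h. For side-by-side values, VCaP parental held cells kept for 48 h in the vehicle, 0.1% DMSO, and LNCaP–ENZ168 was made from LNCaP cells that had spent 168 h with 10 µM ENZ. VCaP and LNCaP are established prostate cancer lines, and each group was 1 Drop-seq library, in which barcoded beads capture single cells in droplets and every captured mRNA is counted once by its unique molecular identifier (UMI). The 917 of 1000 VCaP–ENZ48 barcodes with at least 2000 UMIs, at least 300 genes and at most 25% mitochondrial UMIs were ranked by the share of their UMIs from 12 cell cycle genes (TOP2A, MKI67, CENPF, UBE2C, CCNB1, PCNA, MCM3, MCM4, MCM5, MCM7, TYMS and HMGB2). The top 10%, 92 cells, are called high cells, and the lowest 50%, 459 cells, low cells. They were taken from 3000 barcodes in the series, of which 2857 passed the same filter. Because 1 library per group gives no replicates, and because the cells were selected on cell cycle RNA in the same library, every difference between high and low cells is a description with no test. Intervals are 95% and cover counting error only.

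Dividing cells express their genes in order. E2F factors switch on DNA replication and nucleotide genes as cells enter S phase, including the MCM helicase that is loaded at replication origins and PCNA, the clamp that holds DNA polymerase on its template. Later, a complex of MYBL2 and FOXM1 with MuvB proteins, which recognises the cell cycle homology region (CHR), drives genes of chromosome condensation, the spindle and the kinetochore in G2 and mitosis. Cells that leave the cycle repress both sets, and blocking androgen signalling in prostate cancer cells is known to hold many of them before S phase.

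The 12 genes took a median of 0.173% of a high cell's UMIs (lowest 0.0877%, highest 2.38%) and a median of 0.0126% of a low cell's (lowest 0, highest 0.0231%). The last cell inside the high group had 5 of the 12 genes' UMIs among 5703 (0.0877%), and the first cell outside it had 2 among 2289 (0.0874%). At the lower limit, the last low cell inside had 2 among 8648 (0.0231%) and the first outside had 1 among 4321 (0.0231%). In UMIs, high cells held 18 at the median and at least 3, and low cells held 2, with 117 low cells at 0. The top 10% is therefore a position in a ranking, and most of it lies far from the cells that carry the most cell cycle RNA. A share of at least 0.5% was reached by 18 VCaP–ENZ48 cells (1.96% of kept cells, interval 1.17 to 3.08%), by 395 of 997 VCaP parental cells (39.6%, 36.6 to 42.7%) and by 76 of 943 LNCaP–ENZ168 cells (8.06%, 6.4 to 9.98%). With each cell thinned to 2000 UMIs, 10 or more UMIs of the 12 genes were found in 2.29% of VCaP–ENZ48 cells (1.42 to 3.48%), in 40.9% of VCaP parental cells (37.9 to 44%) and in 8.48% of LNCaP–ENZ168 cells (6.78 to 10.4%), so the order was the same at equal depth. The lowest VCaP–ENZ48 high cell was matched or exceeded by 703 VCaP parental cells (70.5%, 67.6 to 73.3%). Only 4 VCaP–ENZ48 cells reached the lowest share of the top 10% of VCaP parental, which was 1.25%.

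**Figure D1:**
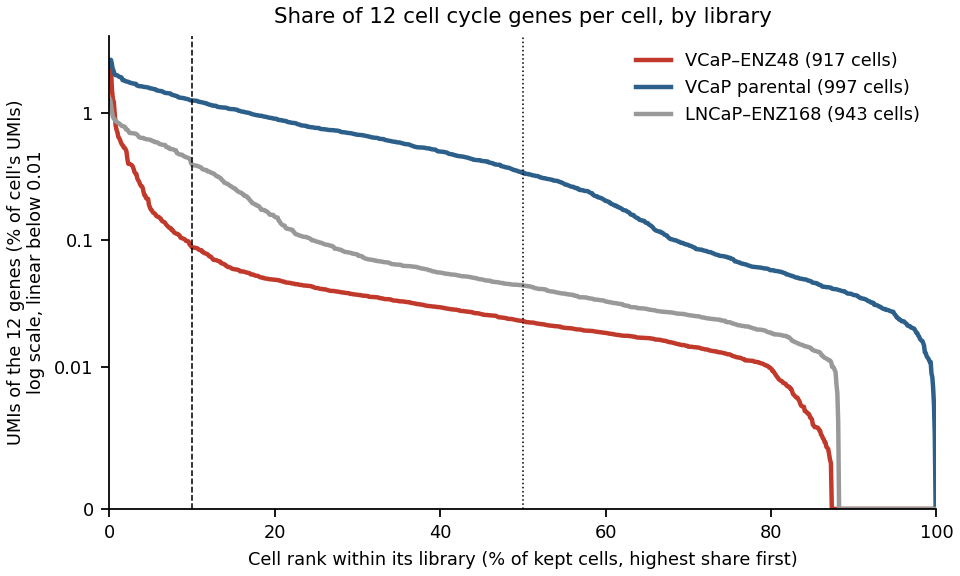
Each line gives 1 library, with its kept cells ordered from the highest to the lowest share of UMIs from the 12 genes (y axis, percent of the cell's UMIs, log scale that is linear below 0.01) against their rank (x axis, percent of kept cells). The dashed line marks the top 10% and the dotted line the lowest 50%, and the VCaP–ENZ48 line drops from 2.38% to 0.0877% within the top 10%, where VCaP parental is still at 1.25%.

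High cells were shallower than low cells, with a median of 8507.5 against 13852 UMIs and 2722.5 against 3723 genes. Their median mitochondrial shares were 6.96 and 6.76%, and barcodes ending in an unread base (N) made up 82.6 and 85.6%. The part of depth in the values below was not tested. The deepest high barcode held 117469 UMIs, 10.0 times the median of the library and 8.57% of all UMIs of the high group, and the barcode of the highest share held 24.2% of the group's G2M phase UMIs. Doublets were not identified or removed. The 3 libraries shared 1 full barcode in each pair, none of them among kept cells. High cells totalled 1371155 UMIs and low cells 7893223.

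Markers that the ranking did not use were higher in high cells but were not found in each of them. RRM2, CDK1, NUSAP1, TPX2, CCNA2, HMMR, TK1, MCM2 and CDC20 summed to 1089 CPM (UMIs scaled to a total of 1000000) in high cells (1034 to 1146) and 31.7 CPM in low cells (27.9 to 35.9), and 71 of 92 high and 165 of 459 low cells had a UMI of any of them. High cells without such a UMI are called cycling by the ranking alone. All cells of both groups had a UMI of at least 1 of 5 luminal markers (KRT8, KRT18, KRT19, EPCAM and KLK2). These summed to 2998 CPM in high cells (2907 to 3091) and 4098 CPM in low cells (4053 to 4143). The lower sum came from KLK2, which was found in every cell of both groups and had a log2 ratio (high over low) of -0.64. KRT8, KRT18, EPCAM and KRT19 were at -0.01, -0.03, 0.15 and 0.87. ERG, which marks VCaP through its fusion to TMPRSS2, was at 35.7 CPM in high cells (26.4 to 47.2) and 57.9 CPM in low cells (52.7 to 63.5). Of markers of other cell types, basal genes had 0 UMIs in high and 4 in low cells, fibroblast genes 2 and 8, and leukocyte genes 1 and 0. Only 1 of 3 basal and 2 of 3 fibroblast genes were in the counts. Neuroendocrine genes (CHGA, SYP and INSM1) were detected. They had 58 UMIs in 28 high cells (42.3 CPM) and 429 UMIs in 221 low cells (54.4 CPM). Low cells are not free of cell cycle RNA, and whether they were quiescent was not measured.

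Over the 7992 genes outside the 12 with a mean of at least 10 CPM in the 2 groups, the median log2 ratio of CPM + 1 (high over low) was 0.05. At least 2-fold higher in high cells were 422 genes (5.28%), and at least 2-fold lower were 76 (0.951%). Genes of DNA replication and mitosis made up much of the first set. The fixed lists of cell cycle genes held 168 of the 422, from 213 such genes measured, and 232 of the 422 were in no list. The set of lower genes was thin, with 2 genes left at a minimum of 50 CPM and 5 with a pseudocount of 10.

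Mitotic genes showed the widest gap. The G2M phase list without the 12 genes summed to 5484 CPM in high and 870 CPM in low cells, a log2 ratio of 2.66 (2.61 to 2.7). Of its 47 measured genes, 43 were at least 2-fold higher and 0 at least 2-fold lower, and its median log2 ratio of 4.17 compares with 0.05 over all genes. All 32 measured genes of spindle and kinetochore and all 21 of mitotic entry and checkpoint were at least 2-fold higher, with medians of 4.24 and 4.23. CDK1, the kinase that starts mitosis (chromosome 10, 60778331 to 60794852, GRCh38), ran per cell from 0 through a median of 15.7 to 1907 CPM in high cells and from 0 through a median of 0 to 325 CPM in low cells. The sums were 274 CPM (247 to 303, 376 UMIs) and 3.67 CPM (2.46 to 5.28, 29 UMIs), a log2 ratio of 5.88. CDK1 was found in 46 of 92 high and 28 of 459 low cells, so the sum of the high group came from a part of its cells.

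The 15 largest ratios outside the 12 genes, counting genes that reached 50 CPM in high or in low cells, lay between 5.25 and 5.97 on the log2 scale, and all 15 are genes of division or replication. NCAPG, a subunit of condensin, was at 141 against 1.27 CPM (log2 ratio 5.97). NDC80, which joins kinetochores to microtubules, was at 99.2 against 0.633 CPM, from 136 and 5 UMIs (5.94). The others in this group were PBK, BIRC5, CDCA3, DLGAP5, KIF4A, SPC25, PTTG1, CDKN3 and MELK of mitosis and PCLAF, MCM10 and RRM2 of S phase. Their low-cell values rest on 2 to 43 UMIs, and the pseudocount of 1 holds their ratios down. Abundant mitotic genes had smaller ratios with better counts. Tubulin genes TUBA1B (1688 against 130 CPM, log2 ratio 3.69) and TUBB (508 against 96.3 CPM, 2.39) have near-identical copies elsewhere in the genome, which makes their counts less certain. SMC4, the core ATPase of condensin, was at 555 against 103 CPM (2.41). CENPE, a kinetochore motor, was at 198 against 10.0 CPM (4.17), but 1 barcode held 63.1% of its UMIs in high cells, and without the barcode of most UMIs in each group the ratio was 2.97. The smallest ratios of the G2M, mitotic entry and spindle lists were those of LBR (0.56), BUB3 (1.13) and CKAP5 (1.22).

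S phase genes were higher too, with smaller ratios per gene. The S phase list without the 12 genes summed to 3162 CPM in high and 620 CPM in low cells, a log2 ratio of 2.35 (2.29 to 2.41), with 33 of 36 measured genes at least 2-fold higher and a median of 2.44. Origin licensing and fork genes had 27 of 29 at least 2-fold higher (median 2.43). PCLAF, which binds PCNA at the fork, ran per cell from 0 through 135 to 1116 CPM in high cells and from 0 through 0 to 340 CPM in low cells. Its sums were 303 CPM (274 to 333, 415 UMIs) and 5.45 CPM (3.94 to 7.34, 43 UMIs), a log2 ratio of 5.56, and it was seen in 53 of 92 high and 39 of 459 low cells. TK1, which makes thymidine monophosphate, was at 244 against 6.33 CPM (5.06), CENPU at 326 against 10.0 CPM (4.89), ATAD2 at 348 against 27.5 CPM (3.61) and the helicase subunit MCM6 at 104 against 19.3 CPM (2.37). Not every gene of the S phase list was higher. TIPIN, of the fork protection complex, was at 72.9 against 84.2 CPM (-0.21, -0.53 to 0.10) and POLR1B, a subunit of RNA polymerase I, at 18.2 against 23.8 CPM (-0.37, -1.05 to 0.22).

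Genes of homologous recombination and the Fanconi pathway, which repair replicating DNA, had 12 of 13 measured members at least 2-fold higher (median 3.04), among them UBE2T, a ubiquitin-conjugating enzyme of the Fanconi pathway (139 against 16.1 CPM, 3.04). Nucleotide supply was mixed, with 8 of 15 at least 2-fold higher. DUT was at 425 against 131 CPM (1.69) and IMPDH2, which feeds guanine nucleotides, at 419 against 489 CPM (-0.22). Histone and histone chaperone genes had 13 of 19 at least 2-fold higher, with H4C3 at 1214 against 206 CPM (2.55) and H2AZ1 at 943 against 155 CPM (2.60), but H2AC6 lower at 101 against 166 CPM (-0.70) and H3-3B, whose protein is laid down outside S phase too, at 702 against 726 CPM (-0.05). Most replication histone mRNAs lack a poly(A) tail and are poorly caught by the beads. Chromatin proteins had 13 of 21 at least 2-fold higher, led in abundance by HMGN1, CBX3 and HMGN2 (601 against 238 CPM for HMGN2, 1.33).

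**Figure D2:**
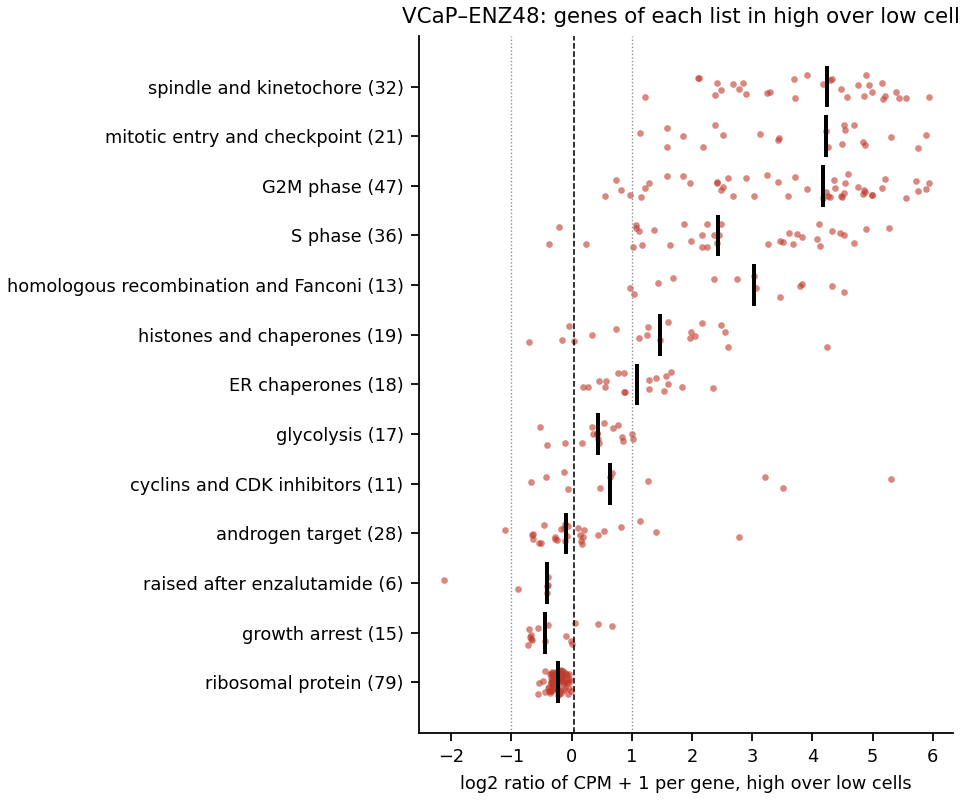
Each point is 1 measured gene of a list (number of genes in brackets), placed by its log2 ratio of CPM + 1 in high over low VCaP–ENZ48 cells (x axis), with black bars at list medians. The dashed line is the median of all genes (0.05) and dotted lines mark 2-fold; mitotic lists reach medians above 4 and ribosomal protein genes all lie to the left of the dashed line.

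Promoter sequences of genes that were higher together are shown because the letters of their control elements differ by phase. RefSeq promoters (GRCh38.p14) were searched in the 250 bases before the start on both strands for CHR letters (TTTGAA or TTTAAA), for CCAAT, for E2F letters (TTTGGCGC, TTTCCCGC, TTTCGCGC or TTTGCCGC) and for the endoplasmic reticulum (ER) stress element, CCAAT followed by 9 bases and CCACG, which contains a CCAAT match. TTTGGCGC and TTTCGCGC can overlap on opposite strands, and a palindrome was counted once. Of 27305 symbols with a promoter, CHR letters were in 22.1%, CCAAT in 33%, E2F letters in 2.79% and the ER element in 0.0806%. Over the 6095 tested genes with a promoter these were 14.1, 36.6, 4.97 and 0.148%. In the G2M phase list 27 of 42 promoters (64.3%) held CHR letters and 2 (4.76%) E2F letters, and in the S phase list 4 of 30 (13.3%) held CHR letters and 10 (33.3%) E2F letters. CCAAT was in 66.7% of both. The ER chaperone list held CCAAT in 16 of 17 promoters and the ER element in 6 (35.3%). A match is a description of letters and not of binding. Below, CDK1 (chr10:60778081-60778330, plus strand) and PTTG1, the securin that restrains chromatid separation (chr5:160421605-160421854, plus strand), stand for G2M genes, CENPU (chr4:184734097-184734346, minus strand) and MCM6 (chr2:135876444-135876693, minus strand) for S phase genes, and HSPA5, the main ER chaperone (chr9:125241344-125241593, minus strand), for ER chaperones. Capitals mark every match.
CDK1: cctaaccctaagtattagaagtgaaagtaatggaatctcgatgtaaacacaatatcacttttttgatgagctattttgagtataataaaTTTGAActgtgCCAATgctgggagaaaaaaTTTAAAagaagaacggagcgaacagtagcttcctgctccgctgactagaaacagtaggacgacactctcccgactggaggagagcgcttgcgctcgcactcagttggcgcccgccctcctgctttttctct
PTTG1: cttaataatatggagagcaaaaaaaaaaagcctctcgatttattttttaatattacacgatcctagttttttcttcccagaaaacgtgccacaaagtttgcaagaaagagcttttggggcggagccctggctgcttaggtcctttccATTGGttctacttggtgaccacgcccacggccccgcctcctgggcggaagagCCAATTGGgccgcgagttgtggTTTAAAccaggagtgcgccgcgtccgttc
CENPU: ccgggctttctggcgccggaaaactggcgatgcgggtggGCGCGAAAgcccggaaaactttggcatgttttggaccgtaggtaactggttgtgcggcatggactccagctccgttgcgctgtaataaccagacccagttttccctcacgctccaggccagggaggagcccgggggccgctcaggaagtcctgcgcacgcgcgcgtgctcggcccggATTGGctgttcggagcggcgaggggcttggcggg
MCM6: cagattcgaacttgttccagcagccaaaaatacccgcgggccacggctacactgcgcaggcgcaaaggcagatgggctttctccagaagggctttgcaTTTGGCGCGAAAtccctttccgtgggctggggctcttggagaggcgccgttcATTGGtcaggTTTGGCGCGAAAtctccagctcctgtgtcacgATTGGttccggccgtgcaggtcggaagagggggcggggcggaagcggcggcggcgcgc
HSPA5: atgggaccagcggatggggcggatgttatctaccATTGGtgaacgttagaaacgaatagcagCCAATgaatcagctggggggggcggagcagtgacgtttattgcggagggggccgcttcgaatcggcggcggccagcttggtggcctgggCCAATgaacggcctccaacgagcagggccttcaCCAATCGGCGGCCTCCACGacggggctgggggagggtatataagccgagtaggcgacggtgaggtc

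CDK1 held 2 CHR matches and 1 CCAAT, PTTG1 held 1 and 3, CENPU held 1 E2F match and 1 CCAAT, and MCM6 held 4 E2F matches at 2 places and 2 CCAAT. HSPA5 held 4 CCAAT, of which the one 66 bases before the start began the ER element. Of the 15 genes with the largest ratios 13 had a promoter in the table, 8 of these (61.5%) with CHR letters and 0 with E2F letters. NDC80, PCLAF and MELK held none of the letters searched.

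The balance of S phase and G2M phase RNA varied among high cells. Of the 92, 59 held more G2M than S phase UMIs of the lists without the 12 genes, 30 held more S phase UMIs and 3 held equal numbers. Low cells split in a like way, with 330 of 459 holding more G2M, 100 more S phase and 29 equal numbers of UMIs. Bands of rank were set after the values were seen. The 10 cells of the highest share all held more G2M UMIs, with 3706 G2M against 509 S phase UMIs. Their G2M level ran from 7696 through 15592 to 38134 CPM per cell. Ranks 11 to 30 were split evenly, 10 with more S and 10 with more G2M UMIs (2375 and 2392 UMIs in all), and the median cell had 5198 CPM of S phase and 5408 CPM of G2M genes. From rank 51 to 92 the medians were 965 and 1342 CPM, against 608 and 831 CPM in low cells, and the 2 groups overlapped. In the 12 genes themselves the G2M genes (TOP2A, MKI67, CENPF, UBE2C, CCNB1 and HMGB2) gave 73.9% of the UMIs in high cells and 36.9% in low cells. TOP2A, which untangles chromosomes (chromosome 17, 40388525 to 40417896), was at 833 CPM in high cells (71 cells) and 6.21 CPM in low cells (43 cells), HMGB2 at 1360.2 and 28.3 CPM, PCNA at 471 and 32.8 CPM, MCM5 at 47.4 and 3.42 CPM and TYMS at 66.4 and 1.14 CPM, as the ranking sets.

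**Figure D3:**
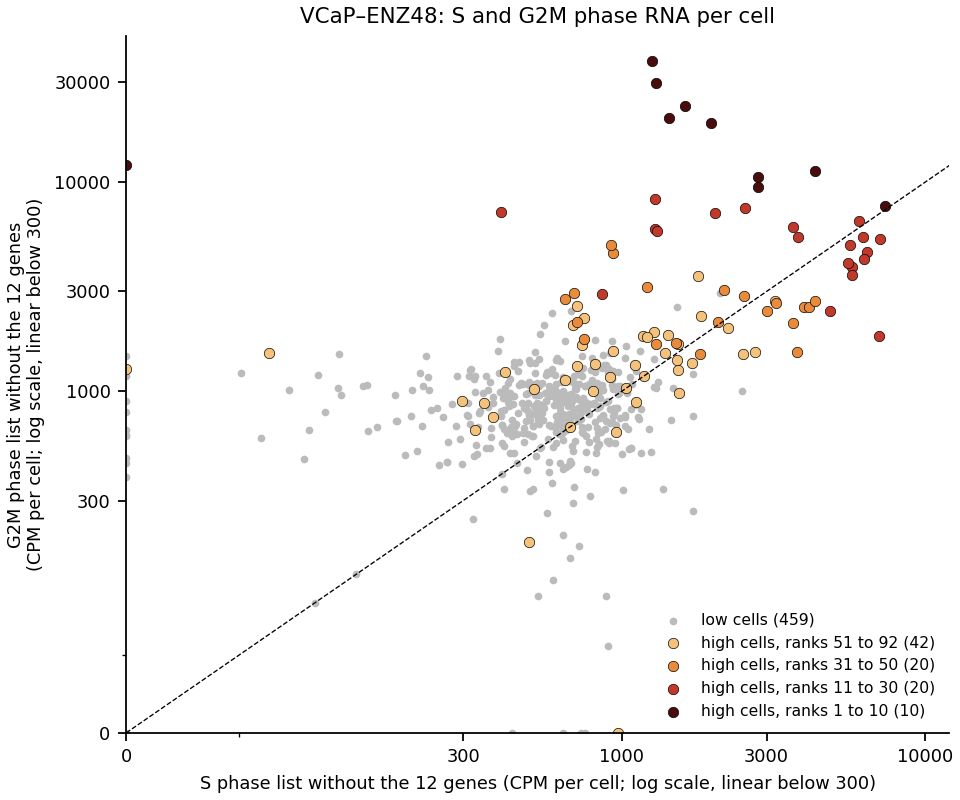
Each point is 1 VCaP–ENZ48 cell, placed by the summed CPM of S phase (x axis) and G2M phase genes (y axis) without the 12 genes, both on log scales that are linear below 300. High cells are coloured by rank band and low cells are grey; the 10 top-ranked cells sit at 7696 CPM of G2M genes or more, ranks 11 to 30 lie on both sides of the dashed line of equal values, and ranks 51 to 92 overlap low cells.

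Regulators of the cycle differed in part. CCNE2, the cyclin that starts S phase, was at 64.2 CPM (51.5 to 79.1) in high and 4.69 CPM (3.30 to 6.46) in low cells, a log2 ratio of 3.52. E2F1 had 14 UMIs in high and 4 in low cells (10.2 and 0.507 CPM, 2.90), FOXM1 36 and 8 (26.3 and 1.01 CPM, 3.76) and MYBL2 12 and 5 (8.75 and 0.633 CPM, 2.58), with 50% of the high-cell MYBL2 UMIs in 1 barcode. E2F1 and MYBL2 were under the 10 CPM minimum. CCND1, which carries growth signals to the cycle, was at 341 and 354 CPM (-0.06, -0.20 to 0.08), and its partner CDK4 at 228 and 147 CPM (0.63, 0.45 to 0.82). CDKN1A, the p21 inhibitor of cyclin-dependent kinases (chromosome 6, 36676460 to 36687337), was higher in high cells, at 110 CPM (93.3 to 129, 151 UMIs) against 44.8 CPM (40.3 to 49.8, 354 UMIs), a log2 ratio of 1.28 (1.01 to 1.57). It was at 279 CPM in ranks 1 to 10, where 1 barcode held 50% of its UMIs (177 CPM without it), at 137 CPM in ranks 11 to 30, and at 41.4 and 51.4 CPM in ranks 31 to 50 and 51 to 92. CDKN1B, the p27 inhibitor, was at 52.5 against 32.4 CPM (0.68, 0.30 to 1.08). The growth arrest list, of genes raised in resting cells, summed to 954 and 1265 CPM (-0.41, -0.49 to -0.32), with 0 of 15 genes past 2-fold each way and 3 above the median of all genes. BTG2 (182 against 299 CPM, -0.71) and YPEL5 (27 against 45.4 CPM, -0.73) were lowest.

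Among the lists outside cell cycle, DNA repair and chromatin, and apart from the study's Persist list, ER chaperones had the largest log2 ratio of sums. The list summed to 10447 CPM in high and 4783 CPM in low cells, a log2 ratio of 1.13 (1.10 to 1.15). All 18 members were above the median of all genes, 9 were at least 2-fold higher and 0 at least 2-fold lower. HSPA5 (chromosome 9, 125234853 to 125241382) ran per cell from 0 through 1173 to 10028 CPM in high cells and from 0 through 508 to 4768 CPM in low cells. Its sums were 1856 CPM (1785 to 1929.6) and 611 CPM (594 to 628), a log2 ratio of 1.60 (1.53 to 1.67). HSP90B1, which folds secreted and membrane proteins (chromosome 12, 103930107 to 103953931), was at 3291 against 1350.2 CPM (1.28, 1.23 to 1.34) and SDF2L1 at 143 against 27.2 CPM (2.35, 2.11 to 2.68). CANX was at 1267 against 866 CPM (0.55) and DNAJB9 at 19.7 against 17.1 CPM (0.19, -0.45 to 0.81). The difference held in each rank band of the high group. HSP90B1 was at 5803, 2844, 3652 and 2350.5 CPM in ranks 1 to 10, 11 to 30, 31 to 50 and 51 to 92, and at 1454 CPM in the middle cells that are in neither group. In ranks 1 to 10, 1 barcode held 46.2% of the HSP90B1 UMIs, and the level was 4198 CPM without it. The mTORC1 signaling list, which contains HSPA5 and HSP90B1, had 14 of 34 at least 2-fold higher (10453 and 5361 CPM, 0.96). Thinned to 2000 UMIs, HSPA5 was found in 79.3% of high (69.6 to 87.1%) and 61.7% of low cells (57.0 to 66.1%). No cell type that should lack these genes was present, so the level given by free RNA was not measured.

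Supply and synthesis lists lay higher by less. Glycolysis summed to 6247 against 4482 CPM (0.48, 0.44 to 0.51), with LDHA at 261 against 128 CPM (1.03) and GAPDH at 1927 against 1412 CPM (0.45). Splicing factors were at 0.50 (1 of 16 at least 2-fold higher), the ATF4 response, of amino acid shortage, at 0.45 (0 of 10), cholesterol and fatty acid synthesis at 0.41 (2 of 18), the proteasome at 0.37 (0 of 23) and nuclear-encoded respiratory chain at 0.15 (0 of 31). Mitochondrially encoded genes summed to 73363 and 73352 CPM (0.00, -0.01 to 0.01). Ribosomal protein genes went the other way as a block. They took 222331 CPM in high and 258157 CPM in low cells (-0.22, -0.22 to -0.21), and 0 of 79 lay above the median of all genes, from RPL17 (-0.56) to RPL35 (-0.01). The nuclear RNA MALAT1 was at 50509 and 64149 CPM (-0.34, -0.36 to -0.33). MYC targets V1, which contain ribosomal protein genes, were at 0.05 as a sum and at 0.32 as a median, with 20 of 187 at least 2-fold higher, and MYC targets V2 at 0.27 (3 of 46). MYC itself was at 394 and 494 CPM (-0.33, -0.46 to -0.20). Immediate early genes were at -0.32 (0 of 13 past 2-fold), luminal epithelial genes at -0.11 (0 of 11), neuroendocrine genes at -0.24 (1 of 6 lower) and interferon-stimulated genes at 0.34 (0 of 6). Markers of other cell types had 3 UMIs in high and 12 in low cells.

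Androgen-target genes did not move as 1 group. Their sum was 5538 CPM in high and 6933 CPM in low cells (-0.32, -0.36 to -0.29), led by 1 abundant gene, and the median of the 28 measured genes was -0.09 against 0.05 over all genes. KLK2, a prostate protease induced by androgen (chromosome 19, 50861568 to 50880567), ran per cell from 103 through 1949 to 9699.9 CPM in high cells and from 104 through 2894 to 14940 CPM in low cells. Its sums were 2033 CPM (1959 to 2110.2) and 3171 CPM (3132 to 3210.5), a log2 ratio of -0.64 (-0.70 to -0.58). The ranges of single cells overlapped nearly in full. Across every kept cell, VCaP–ENZ48 held more KLK2 than VCaP parental, with 3057 against 1554 CPM. High cells thus lay between the level over all VCaP parental cells and low cells in KLK2. That parental level mixes cells at a share of at least 0.5% (1020 CPM) and under 0.5% (1929 CPM), and high cells lay above both. The sum of the androgen-target list, which contains KLK2, was higher after ENZ (6875 against 5990 CPM). KLK2 rose by more than the list did, so the sum of the other members was lower after ENZ. Lower after ENZ were FKBP5 (23.8 against 66.9 CPM), SLC45A3 (22.9 against 96.1), PMEPA1 (98.7 against 212) and TMPRSS2 (16.8 against 26.8). Whether KLK2 followed androgen signalling in these cells was not tested. By rank KLK2 was at 913 CPM (781 to 1061) in cells 1 to 10, where 1 barcode held 50% of its UMIs (549 CPM without it). It was at 1700.2 in 11 to 30, 2092 in 31 to 50 and 2934 in 51 to 92. FKBP5, a co-chaperone and androgen-target gene (chromosome 6, 35573585 to 35728583), went the other way at 48.9 CPM (37.9 to 62.1, 67 UMIs in 32 cells) against 21.5 CPM (18.4 to 25, 170 UMIs in 114 cells), a log2 ratio of 1.15 (0.75 to 1.60). It was at 48.4, 74.7 and 44.6 CPM in ranks 1 to 10, 11 to 30 and 31 to 50, and at 20.6 CPM in ranks 51 to 92, close to low cells. FKBP5 and CENPN (46.7 against 5.95 CPM, 2.78), which is a kinetochore protein, were among the 3 genes of the list at least 2-fold higher, and C1orf116 (17.5 against 38.9 CPM, -1.11) the 1 at least 2-fold lower. SLC45A3 was at 15.3 against 24.3 CPM (-0.63, -1.39 to -0.01), TMPRSS2 at 10.9 against 17.7 CPM (-0.65, -1.57 to 0.07), PMEPA1 at 85.3 against 96.8 CPM (-0.18, -0.48 to 0.10) and KLK3 at 13.1 against 11.5 CPM (0.17, -0.63 to 0.93). NPY, a neuropeptide gene, was at 190 against 99.3 CPM (0.93, 0.73 to 1.14), but the deepest barcode held 34.1% of its UMIs in high cells and the ratio was 0.46 without that barcode.

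A list of 6 genes chosen as higher in VCaP–ENZ48 than in VCaP parental had a lower sum in high than in low cells. This list of 6 (REG4, PLA2G2A, RGS4, CCN3, FBLN2 and SHROOM1), at 1295 CPM over all kept VCaP–ENZ48 cells and 91.8 CPM over VCaP parental, was chosen on these libraries and is not independent evidence of a direction. It summed to 956 CPM in high and 1411 CPM in low cells (-0.56, -0.65 to -0.48), and 0 of the 6 lay above the median of all genes. CCN3, a secreted matrix-associated protein, ran per cell from 0 through 115 to 1256 CPM in high cells and from 0 through 241 to 3748 CPM in low cells, with sums of 184 CPM (162 to 208) and 342 CPM (329 to 355), a log2 ratio of -0.89 (-1.09 to -0.71). In ranks 1 to 10, 11 to 30, 31 to 50 and 51 to 92 it was at 199, 93.4, 162 and 306 CPM, but 1 barcode held 78.4% of its UMIs in ranks 1 to 10, which were at 51.7 CPM without it. PLA2G2A, a secreted phospholipase, was at 513 against 684 CPM (-0.41, -0.53 to -0.30), FBLN2 at 160 against 211 CPM (-0.39, -0.60 to -0.19), SHROOM1 at 47.4 against 62.6 CPM (-0.39, -0.80 to -0.03) and RGS4 at 38.7 against 51.4 CPM (-0.40, -0.85 to 0.00). REG4, a secreted lectin, had the lowest ratio of any gene of at least 50 CPM, -2.13 (13.1 against 60.7 CPM), but 1 low barcode held 57.0% of its low-cell UMIs. Without the barcode of most UMIs in each group the ratio was -1.35, and at 2000 UMIs REG4 was found in 7.61% of high (3.11 to 15.1%) and 3.49% of low cells (2.01 to 5.60%), so the share of cells gives no order.

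The next lowest ratio was that of ZFP36L2, a protein that speeds mRNA decay (20.4 against 61.8 CPM, -1.55). OPRK1, the kappa opioid receptor, was at 48.1 against 106 CPM (-1.12). AC090602.1, GRAMD2B, AC093827.1, KDM5B, APELA, RPS3AP49 and EPB41L4A-AS1 lay between -1.16 and -0.96. KDM5B, which removes histone H3 lysine methylation, was at 39.4 against 79.9 CPM. RPS3AP49 is a pseudogene that may share reads with its parent gene. EPB41L4A-AS1, an antisense RNA that hosts a small nucleolar RNA, was at 121 against 237 CPM.

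**Figure D4:**
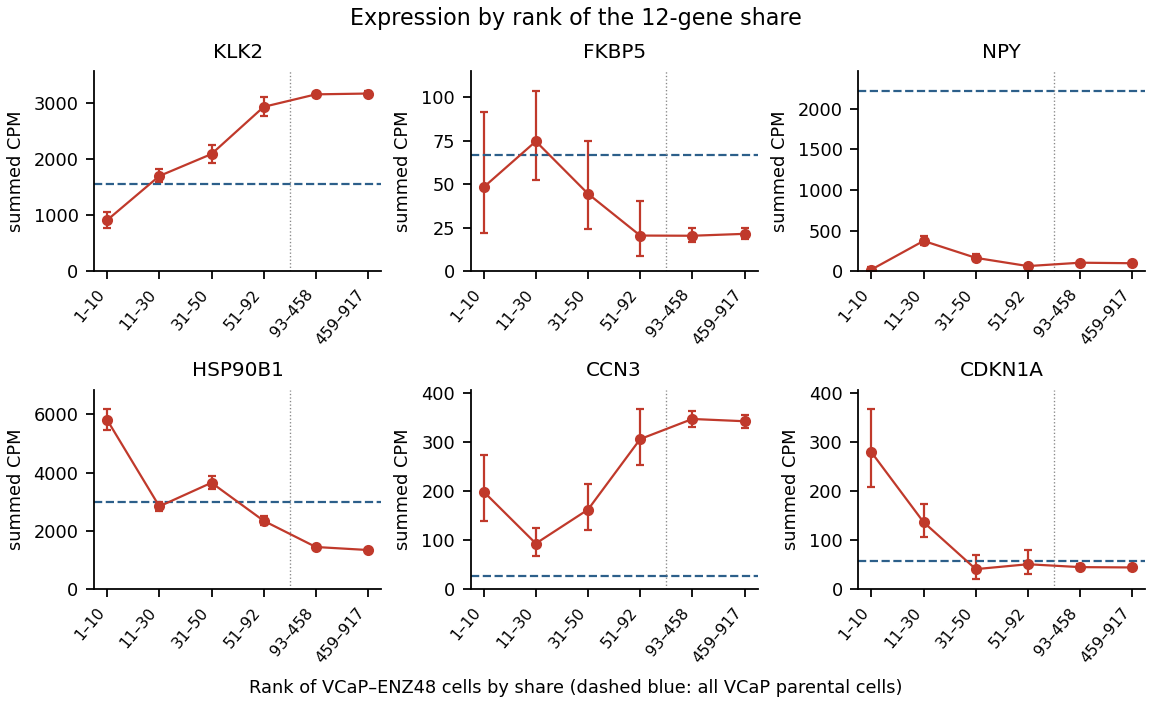
Summed CPM of 6 genes (y axes from 0) in bands of VCaP–ENZ48 cells ordered by the share of the 12 genes (x axis, ranks), with exact 95% Poisson intervals as bars. The dotted line ends the high group and the dashed blue line is the level over all VCaP parental cells; KLK2 is lowest in ranks 1 to 10, CCN3 lies below the low cells in ranks 1 to 50 (with most of its UMIs of ranks 1 to 10 in 1 barcode), FKBP5 peaks in ranks 11 to 30, HSP90B1 and CDKN1A in ranks 1 to 10, and NPY stays below the parental level in each band.

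The same ranking chose another kind of cell in VCaP parental, while in LNCaP–ENZ168 both phase lists were higher, as in VCaP–ENZ48. Low cells of VCaP parental had shares of up to 0.338%, against up to 0.0231% in VCaP–ENZ48. Their S phase list was at 1940.3 CPM, against 620 CPM in VCaP–ENZ48 low cells. Ratios of the VCaP libraries therefore rest on unlike low cells, and the part of this in the gaps between libraries was not tested. The top 10% of VCaP parental, 100 cells, were all G2M-led, with 48031 G2M against 4422 S phase UMIs, and the S phase list differed little there (2139 against 1940.3 CPM, 0.14, 0.09 to 0.19) while the G2M list was at 3.49 (3.46 to 3.51). In that library 5.53% of 7263 genes were at least 2-fold higher and 2.81% at least 2-fold lower, with 3 of 34 S phase genes higher and 9 lower. CCNE2 went from 3.52 in VCaP–ENZ48 to -2.33 in VCaP parental (8.71 against 47.7 CPM) and MCM6 from 2.37 to -2.51. High cells of LNCaP–ENZ168 had S phase and G2M lists at 2.40 (2.33 to 2.47) and 2.94 (2.90 to 2.99), with 33 of 37 and 47 of 49 genes at least 2-fold higher, against 7.64% of all 9039 genes (4.89% at least 2-fold lower). The androgen-target list was at -0.72 (-0.75 to -0.69) in VCaP parental and -0.34 (-0.41 to -0.28) in LNCaP–ENZ168, and ribosomal protein genes at -0.36 and -0.19. KLK2 was lower in high cells of VCaP parental too (700.1 against 2045 CPM, -1.55). FKBP5 was at 50.8 against 68.5 CPM there (-0.42), so its high-cell level in VCaP–ENZ48 (48.9 CPM) lay close to that of cycling parental cells while its low-cell level did not. ER chaperones were at 0.61 (0.59 to 0.63) in VCaP parental, 12370 against 8091 CPM, and at -0.04 (-0.09 to 0.00) in LNCaP–ENZ168. None of these differences between libraries was tested.

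**Figure D5:**
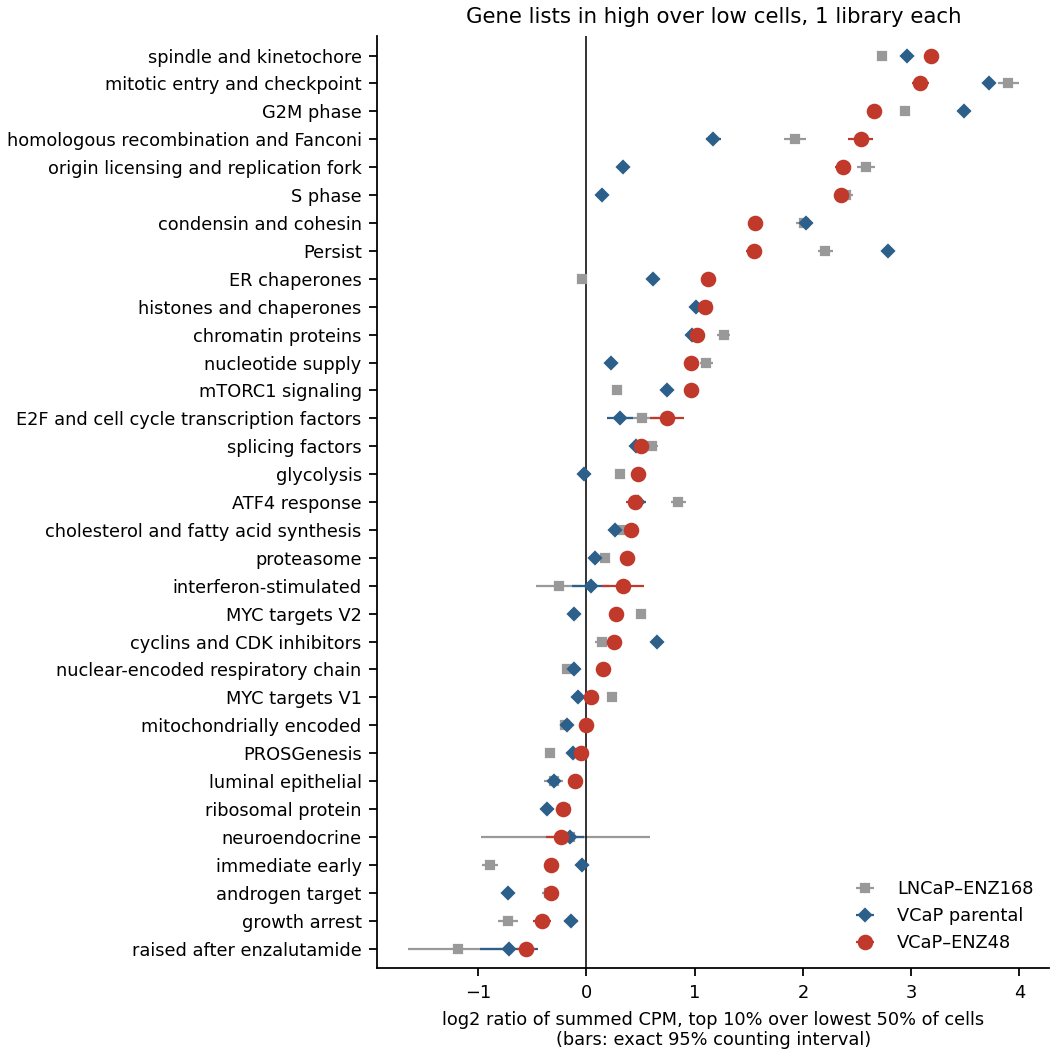
For each list (y axis) the points give the log2 ratio of summed CPM in the top 10% over the lowest 50% of cells of 1 library (x axis), with exact 95% counting intervals as bars. Red circles (VCaP–ENZ48) and grey squares (LNCaP–ENZ168) lie together for S phase, at 2.35 and 2.40, where blue diamonds (VCaP parental) lie at 0.14, and the 3 libraries spread from -0.04 to 1.13 for ER chaperones.

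Cells picked at an equal share give a closer match of phase between the VCaP libraries than the top 10% of each. The limit of 0.5% was set after the values were seen. It left 18 VCaP–ENZ48 cells and 395 VCaP parental cells, with S phase lists at 4091 (3887 to 4304) and 4032 CPM (3988 to 4076) and G2M lists at 12956 and 13878 CPM. The G2M match rested in part on 1 barcode, which held 38.4% of the G2M phase UMIs of the 18 cells. Without it their G2M level lay further below the parental one, so phase was matched only in part. In these cells, KLK2 was at 1215 CPM (1105 to 1334) in VCaP–ENZ48 and 1020.0 CPM (998 to 1042) in VCaP parental, and FKBP5 at 57.4 (35.5 to 87.7) and 64.1 CPM (58.7 to 69.9). NPY was at 95.6 CPM (66.6 to 133) against 1643 CPM (1615 to 1671). SLC45A3, a prostate transporter and androgen-target gene, had 0 UMIs in the 18 cells (interval up to 10.1 CPM) and was at 44.7 CPM (40.2 to 49.5) in the parental cells. PMEPA1 was at 46.4 (27 to 74.3) and 169 CPM (160 to 178). The 6 genes chosen as higher after ENZ summed to 710 CPM (626 to 802) and 77.2 CPM (71.2 to 83.5), with 30% of their UMIs in the 18 cells in 1 barcode. HSPA5 was at 2780.2 (2612 to 2956) and 1683 CPM (1655 to 1712), and CDKN1A at 303 (249 to 365) and 96.5 CPM (89.9 to 104), with 23.4% of the CDKN1A UMIs of the 18 cells in 1 barcode. The largest part held by 1 of the 18 barcodes was 31.4% for NPY, 23.8% for FKBP5 and 23.5% for PMEPA1. It was 19.3% for HSPA5 and 19.1% for KLK2. These values were not tested.

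Signatures named by the study were read last and are not independent evidence of a direction. The study scored Persist and PROSGenesis in LNCaP samples and also in VCaP parental and VCaP–ENZ48 cells. Persist is a cell cycle-driven set that the study tied to LNCaP cells that outlast ENZ. Its members include the mitotic genes CENPE and DLGAP5 of the lists above, and the cells were ranked on cell cycle RNA. Its ratio is therefore not separate from those of the mitotic lists. Persist had 10 of 13 measured genes at least 2-fold higher (1616 against 553 CPM, 1.55, 1.47 to 1.62, median 3.43). Over all genes 5.28% were at least 2-fold higher and 0.951% at least 2-fold lower. CD81 (0.28) and DYNLL1 (0.30) were its members closest to 0. PROSGenesis, a signature of prostate tissue regeneration, was at -0.05 (-0.09 to -0.02), with 0 of 48 genes at least 2-fold higher and 1 lower, MME (4.38 against 21.4 CPM, 6 and 169 UMIs, -2.06).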

How the data were processed

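The authors prepared the libraries by Drop-seq, aligned reads to GRCh38 with STAR and deposited raw UMI counts per gene and barcode, made with Drop-seq tools and Picard under a Gencode annotation. Each deposited library holds 1000 barcodes, the number the pipeline was set to expect. The study's later quality filter on genes, molecules and mitochondrial reads was not used here. Coordinates of genes come from a later Gencode version on GRCh38. UMIs of the high and of the low cells were summed and scaled to CPM, and differences are log2 ratios of CPM + 1 for genes and of summed CPM for lists. A gene was used when its CPM averaged 10 or more over both groups. The 12 ranking genes were taken out of every list. Intervals are exact: Poisson for sums, conditional for ratios (without the pseudocount) and Clopper-Pearson for shares. A count of 0 allows up to 3 counts. Of 886 list genes 867 were found. The members, the lists and the named genes were chosen with earlier results of these data known. Named genes were the 12, the 15 largest and 10 smallest ratios at 50 CPM or more, 23 chosen genes and, per list, the 3 most abundant and the member farthest from the median each way. CCNA2, HMMR, KRT8, MCM2, MCM6, NUSAP1, TK1 and TPX2 were named after their values were seen. Some genes are not reported here. Doublets were not identified or removed. Promoters matched by symbol. Steps were tested on simulated data. Computations used Python 3.11.15, numpy 2.4.6, pandas 2.3.3, scipy 1.17.1, matplotlib 3.10.9 and, for TMM factors, R 4.3.3 with edgeR 4.0.16.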

Additional observations from a re-analysis of the deposited data

Results flagged for a closer look

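Lists whose high over low ratio had intervals on opposite sides of 0 in VCaP–ENZ48 and in another library are given here. Differences between VCaP parental and LNCaP–ENZ168 are not listed. Each library is 1 sample, the intervals cover counting error only, and none of these differences was tested. ER chaperones were at 1.13 in VCaP–ENZ48 and -0.04 in LNCaP–ENZ168, a gap of 1.17 on the log2 scale. Interferon-stimulated genes were at 0.34 and -0.25, a gap of 0.59. Nuclear-encoded respiratory chain genes were at 0.15 and -0.18 (gap 0.34), and at -0.12 in VCaP parental (gap 0.27). MYC targets V1 were at 0.05 against -0.08 in VCaP parental (gap 0.13), and MYC targets V2 at 0.27 against -0.11 (gap 0.38).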

How the results depend on the processing

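With 1 library per group the values have no replicate check, and each was recomputed with other choices of cells, ranking or scale. No paired analysis was possible because 1 library stands for each group. The S phase ratio of 2.35 was 2.67 with the top 5% as high cells, 1.89 with the top 20%, 1.87 with cells ranked after thinning to 2000 UMIs, 2.24 without barcodes above 3 times the median depth, 2.50 with barcodes without N (13 high and 63 low cells), 1.79 with cells weighted equally and 2.26 with TMM scaling. The G2M phase ratio of 2.66 was 3.08, 2.16, 2.23, 2.27, 2.39, 2.32 and 2.56 in the same order, and 2.61 with ranking and values from separate UMIs. The androgen-target ratio of -0.32 was -0.47, -0.18 and -0.20 for the first 3, -0.28 with separate UMIs, -0.29 without deep barcodes, -0.26 with equal weights and -0.42 with TMM. The ribosomal ratio of -0.22 was -0.22, -0.17 and -0.10 for the first 3, -0.21 at 5000 UMIs or more, -0.22 with separate UMIs, -0.20 without deep barcodes and at 15% mitochondrial UMIs, -0.17 without N, -0.16 with equal weights and -0.31 with TMM. Of alternatives chosen after seeing the data, a share of at least 0.5% gave 2.72, 3.90, -0.66 and -0.33 for these 4 lists. Leaving out the deepest high barcode gave 2.24 for S phase, and leaving out the barcode of the highest share gave 2.31 for G2M phase and -0.19 for ribosomal genes. The 422 higher genes became 258 (top 20%), 276 (thinned), 858 (without N), 117 (50 CPM), 940 (1 CPM) and 924 (0.5% share). The 76 lower genes became 220 (top 5%), 8 (top 20%), 13 (thinned), 180 (separate UMIs), 753 (without N), 125 (equal weights), 128 (TMM), 2 (50 CPM), 737 (1 CPM), 5 (pseudocount of 10) and 576 (0.5% share). TMM put the median of all genes at -0.04 and gave 369 higher and 128 lower genes. Signs reversed for ratios whose counting interval left out 0: PROSGenesis (0.00053 for the top 20%, 0.13 without N), PLA2G2A (0.041, thinned), MT-CYB (-0.085 thinned, -0.17 at 0.5%), EPCAM (-0.017 thinned, -0.55 at 0.5%), luminal epithelial genes (0.016), SLC45A3 (0.59), FBLN2 (0.025), SMC3 (-0.25) and RPS6 (0.058) without N, MT-RNR2 (0.036, equal weights), MYC targets V1 (-0.047 TMM, -0.0033 at 0.5%) and NPY (-0.055 at 0.5%). Another 20 results, whose interval held 0, changed sign under 1 or more alternatives, among them the mitochondrially encoded list, STEAP1 and CD81 (0.28, and -1.14 at a 0.5% share). The cause was not tested. KLK2 ran from -1.38 to -0.34 and CDKN1A from 0.88 to 2.73 over the alternatives.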

Other observations

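Outside the lists, 2 genes chosen after their values were seen were higher in high cells. MT2A, a metallothionein that binds zinc and copper, was at 488 against 231 CPM (log2 ratio 1.08), and CYCS, the electron carrier cytochrome c, at 470 against 219 CPM (1.10).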
